A study of Mus musculus with 12 samples.

Results

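Cholesterol and fatty-acid synthesis genes were followed as a set of 32 named genes, listed by gene symbol, out of the 52636 genes of the count files. All 32 matched 1 identifier each and all 32 passed the filter on low counts that left 17970 genes for testing. They comprise 17 enzymes of the sterol arm (6 mevalonate steps and 11 steps from squalene to cholesterol), 6 enzymes of the fatty-acid arm, 5 regulators, a sterol carrier and a thiolase, and 2 sterol efflux transporters. The RNA came from 12 bulk tumors of 2153L, which the labels describe as triple-negative breast cancer (TNBC) from a genetically engineered mouse. The tumors grew in female Balbc hosts, in the fat pad of the mammary gland. Tumors had been transduced with an empty vector (EV) or with P53ERTAM, a p53 protein that tamoxifen switches on. They were treated for 8 days with vehicle or with the combination called combo, which joins ORIN1001 (150 mg/kg, daily), an inhibitor of the RNase of the stress sensor IRE1α, and docetaxel (20 mg/kg, weekly), a drug that acts on microtubules. The 4 groups are thus EV vehicle, EV combo, P53ERTAM vehicle and P53ERTAM combo, with 3 tumors each and the 2153L background in common. Nothing in the labels tells whether all mice were given tamoxifen, or whether the 3 tumors of a group grew in separate animals. P-values thus measure the spread between these samples, and the effects of the 2 drugs of combo cannot be told apart.

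Cholesterol is built from acetyl-CoA through mevalonate, isoprenoid diphosphates, squalene and lanosterol, and the genes of these steps are driven by SREBP-2. Its relative SREBP-1c, both itself a target of the liver X receptors (LXR) and a driver of lipogenesis, acts more on the fatty-acid enzymes. Both SREBPs are made as membrane-bound precursors that Scap carries from the endoplasmic reticulum to the Golgi for cleavage when sterols are low, while the Insig proteins hold Scap back when sterols are high. The endoplasmic reticulum, where IRE1α resides, is also the site of most of the sterol pathway. When oxysterols build up, LXR induces the efflux transporters Abca1 and Abcg1.

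Totals per library lay between 13484873 and 24424964 counts, and the lowest count of any member in any library was 40. The 3 EV combo libraries stood apart from the other 9: the noncoding gene Gm26917 took 10.7 to 11.1% of their counts against 0.133 to 1.10% elsewhere, and protein-coding genes 80.9 to 81.7% against 86.7 to 95.8%. In the check of the vector labels, Cdkn1a, a textbook p53 target, lay at 26.2, 45.2 and 26.8 CPM (counts scaled to library size with TMM factors) in EV vehicle, 53.9, 22.3 and 25.2 in EV combo, 92.2, 158 and 117 in P53ERTAM vehicle and 175, 199.6 and 167 in P53ERTAM combo, so every P53ERTAM library was above every EV library. Esr1, the receptor whose ligand-binding domain ERTAM constructs carry, showed the same separation (5.31 to 12.4 against 29.3 to 38.9 CPM), whereas Trp53 did not (39.8 to 54.97 against 48.4 to 65.04 CPM). As a check of the tissue, the 10 epithelial markers summed to 1881 to 4395 CPM per library. The 10 adipocyte markers, of interest because fat of the pad makes lipid too, summed to only 3.16 to 16.2 CPM, with Adipoq, Lep and Retn below 1 CPM in all 12 libraries.

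The sterol arm was highest in EV vehicle tumors, and nearly all its genes were lower in P53ERTAM vehicle tumors. A gene was called where the Benjamini-Hochberg adjusted p of the edgeR quasi-likelihood test, adjusted over all 17970 genes, was below 0.05. Unless another setting is named, edgeR stands for the main fit of all 12 libraries with TMM scaling. Under vehicle, P53ERTAM against EV, 14 of 17 sterol-arm genes were called lower (median log2 fold change -0.83, against 0.01 over all genes tested), beside 19.8% of all genes called lower. Under combo, 10 of 17 were called lower in P53ERTAM than in EV (median -0.53, all genes 0.06, 22.0% of all genes called lower). Combo lowered 9 of 17 in EV tumors (median -0.44, all genes -0.07, 21.1% called lower). In P53ERTAM tumors combo changed 0 of 17 by edgeR (median -0.12, all genes 0.00, 6.28% of all genes called), with 2 lower at an unadjusted p below 0.05, 0 called by DESeq2 (12.6% of all genes) and 1, Cyp51, by limma voom with sample weights (20.9%). Over all 32 members, 22 were called in P53ERTAM against EV under vehicle, 3 higher and 19 lower, beside 37.8% of all genes (17.9% higher). Under combo 15 were called, 4 higher and 11 lower, beside 44.1% of all genes (22.1% higher). Combo in EV tumors gave 16 calls, all lower, beside 39.9% of all genes, and in P53ERTAM tumors 1 was called, higher, beside 3.30% called higher. Each group stands in 2 of these 4 comparisons, so they share samples. All 32 members are protein-coding, and the 13911 protein-coding genes tested differed somewhat from all genes. Of these 13911, 3505 were called lower with combo in EV tumors (median -0.13). In P53ERTAM against EV, 3406 were called lower under vehicle (median -0.07) and 2714 under combo (median 0.13). With combo in P53ERTAM tumors 571 were called higher and 310 lower (median 0.06).

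**Figure D1:**
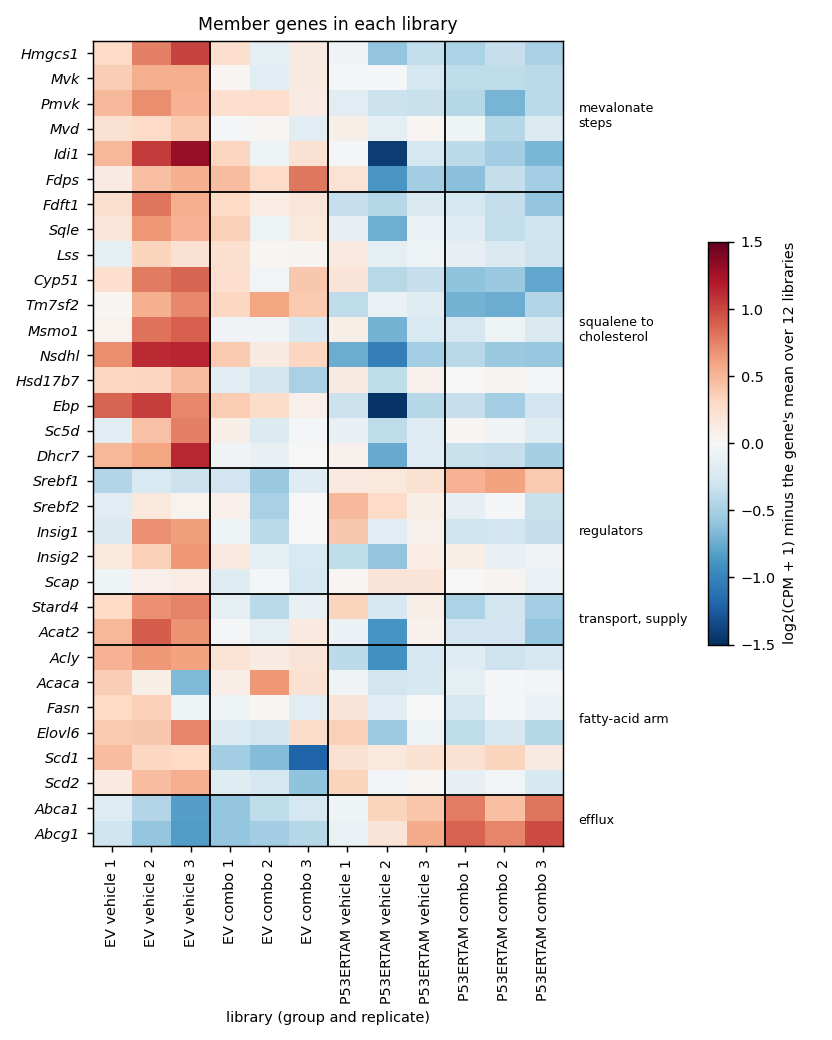
Each of the 32 members (rows, grouped by role) in each of the 12 libraries (columns, 3 per group), as log2(CPM + 1) minus the gene's own mean over the 12 libraries (color, red above and blue below that mean). The sterol-arm rows are mostly red in EV vehicle and mostly blue in both P53ERTAM groups, and the 2 efflux transporters run the other way.

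The mean of log2(CPM + 1) over the 17 sterol-arm genes, set against the same genes' mean over the 12 libraries, was 0.28, 0.66 and 0.72 in the 3 EV vehicle libraries. It was 0.20, 0.03 and 0.12 in EV combo, -0.08, -0.58 and -0.24 in P53ERTAM vehicle and -0.33, -0.38 and -0.40 in P53ERTAM combo. The level thus stepped down from EV vehicle to EV combo to the P53ERTAM groups without overlap between EV and P53ERTAM libraries, while the 2 P53ERTAM groups overlapped. 2 libraries carried much of the within-group spread. EV vehicle replicate 1 held the lowest value of its group for 16 of the 17 genes, and P53ERTAM vehicle replicate 2, also the library with the lowest total, for 14 of 17. Calls for combo in EV tumors depended on single libraries: 9 genes became 4 without EV vehicle replicate 3 and 5 without replicate 2 of EV vehicle or replicate 2 or 3 of EV combo. For P53ERTAM against EV under combo, 10 became 6 without EV combo replicate 1 or any 1 of the P53ERTAM combo libraries, and under vehicle the count stayed between 11 and 15 without any 1 library.

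Scaling to protein-coding genes alone moved the median of all genes from -0.07 to 0.06 for combo in EV tumors, from 0.06 to -0.05 for the vectors under combo and from 0.13 to -0.06 for their interaction (log2). The share of calls that were higher moved with it, from 47.2 to 60.5% for combo in EV tumors, from 52.5 to 41.5% in P53ERTAM tumors and from 52.2 to 36.5% for the interaction. On that scale 6 sterol-arm genes were called lower with combo in EV tumors, beside 14.8% of all genes. In P53ERTAM against EV, 13 were called lower under vehicle, beside 17% (3050 of 17970), and 12 under combo, beside 26.0%. The arm's medians in these 3 comparisons were -0.31, -0.76 and -0.64.

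**Figure D2:**
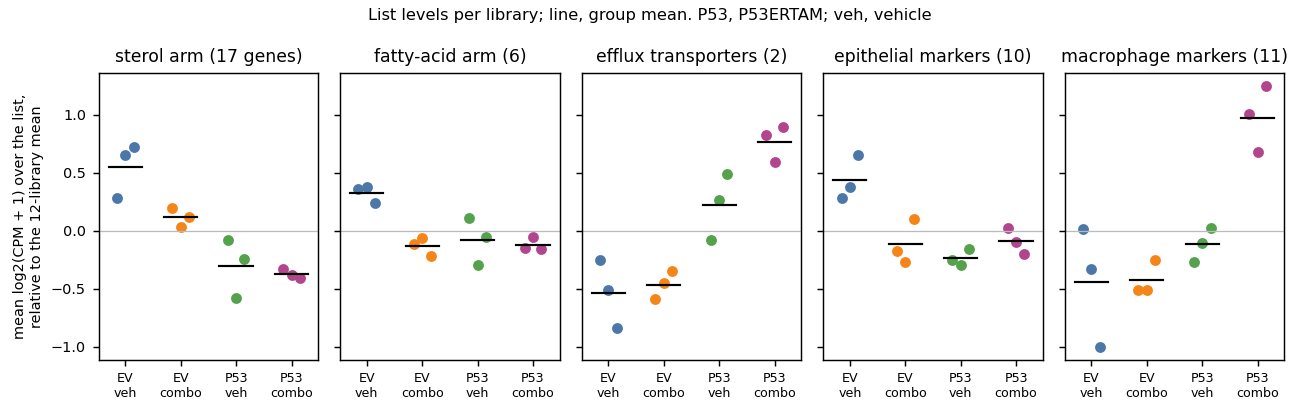
Mean log2(CPM + 1) of the genes of a list relative to their 12-library mean (y axis) in each library (points) of the 4 groups (x axis), with the group mean as a line, for the sterol arm, the fatty-acid arm, the efflux transporters, and the epithelial and macrophage markers. The sterol arm separates EV from P53ERTAM libraries, the fatty-acid arm is highest in EV vehicle, and the macrophage markers are highest in P53ERTAM combo.

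Promoters of the sterol genes were read for the boxes that SREBPs and their partner NF-Y are known to use, since these genes moved together. Windows from 250 bases before to 50 after the start were found in RefSeq (GRCm38.p6) for 25 of the 32 members, and not for Sqle, Fdft1, Fdps, Scd1, Stard4, Abcg1 and Scd2. A gene can have more than 1 such window. The NF-Y box CCAAT, searched on both strands, was in at least 1 window of all 14 sterol-arm genes that have one and of 2 of 4 fatty-acid genes (Acly and Fasn), against 41.1% of all genes. It was also in a window of 4 of 5 regulators (Srebf1, Srebf2, Insig1 and Insig2). Among these, Srebf1 was called higher in P53ERTAM tumors and Srebf2 had no call in the main edgeR fit. Of the sterol-arm genes 9 had a window with 2 or more. By window, 14 of 17 sterol-arm windows held the box, against 37.4% of all 32851. The sterol regulatory element in its textbook form was in the windows of 0 of the 25 genes, against 0.0999% of genes. Its looser core TCACNCCAC was in those of 1, Hmgcs1 (137 bases before the start), against 1.44% of genes. The E-box CACGTG was in those of 6 (Abca1, Dhcr7, Hsd17b7, Insig1, Sc5d and Scap), against 8.09% of genes. A match is a string of letters and not a measured binding site. The stretches printed here belong to 2 early steps (Hmgcs1 and Mvk), to the 2 sterol genes with the largest difference between the vectors under vehicle (Nsdhl and Ebp) and to Fasn as a fatty-acid gene; capitals mark CCAAT on either strand, which reads ATTGG on the other, and TCACNCCAC in Hmgcs1. All are printed 5′ to 3′ on the gene's strand and end before the start. They cover chr13:119690171-119690320 (plus strand), chr5:114444089-114444268 (plus), chrX:72918412-72918520 (plus), chrX:8193553-8193692 (minus) and chr11:120824593-120824647 (minus) of GRCm38.
Hmgcs1: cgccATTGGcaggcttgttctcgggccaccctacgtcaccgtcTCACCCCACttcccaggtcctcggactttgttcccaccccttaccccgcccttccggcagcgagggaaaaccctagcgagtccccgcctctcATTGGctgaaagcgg
Mvk: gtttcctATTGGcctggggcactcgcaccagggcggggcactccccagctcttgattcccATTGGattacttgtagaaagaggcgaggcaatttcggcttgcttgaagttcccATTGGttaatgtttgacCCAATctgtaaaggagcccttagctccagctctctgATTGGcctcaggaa
Nsdhl: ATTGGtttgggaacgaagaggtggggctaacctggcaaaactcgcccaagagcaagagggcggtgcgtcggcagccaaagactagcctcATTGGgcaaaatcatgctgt
Ebp: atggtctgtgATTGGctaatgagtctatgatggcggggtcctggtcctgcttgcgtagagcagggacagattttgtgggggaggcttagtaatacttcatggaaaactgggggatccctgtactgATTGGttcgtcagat
Fasn: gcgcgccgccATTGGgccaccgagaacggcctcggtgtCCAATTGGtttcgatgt
In Mvk the box occurs 5 times, and in Fasn a CCAAT and an ATTGG overlap.

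Of the 6 mevalonate steps, 4 were lower in P53ERTAM than in EV tumors under each treatment and 4 were lowered by combo in EV tumors. Of all genes, 19.8% were called lower in P53ERTAM under vehicle, 22.0% under combo and 21.1% with combo in EV tumors. Hmgcs1 (ENSMUSG00000093930.2, chromosome 13, 119690379 to 119708260), the synthase that joins acetyl-CoA and acetoacetyl-CoA and so opens the pathway, had 122, 169 and 203 CPM in EV vehicle and 119, 91.2 and 110.1 in EV combo. With P53ERTAM the values were 96.6, 66.1 and 77.1 under vehicle and 71.8, 78.5 and 71.2 under combo. Each EV vehicle library lay above every library of the other 3 groups. It was lower in P53ERTAM under vehicle (log2 fold change -1.04, SE 0.18, adjusted p = 0.000784) and under combo (log2 fold change -0.53, SE 0.18, adjusted p = 0.027), and fell with combo in EV tumors (log2 fold change -0.62, SE 0.18, adjusted p = 0.0136). The fall was not called without replicate 2 of EV combo (adjusted p = 0.0573) or replicate 3 of EV vehicle (adjusted p = 0.0786), nor in a fit of those 2 groups alone (adjusted p = 0.0532), and the difference under combo not without replicate 1 or 3 of EV combo or replicate 1, 2 or 3 of P53ERTAM combo (adjusted p from 0.0503 to 0.0979). With combo in P53ERTAM tumors Hmgcs1 gave -0.12 (SE 0.18, adjusted p = 0.735), and the 2 groups overlapped.

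Idi1, the isomerase that makes dimethylallyl diphosphate, had the widest fold range of the arm: 14.1, 21.1 and 25.5 CPM in EV vehicle and 12.4, 9.18 and 11.6 in EV combo. In P53ERTAM tumors Idi1 had 9.52, 3.01 and 7.93 with vehicle and 7.17, 6.45 and 5.69 with combo. P53ERTAM vehicle replicate 2 was the lowest of all libraries. The gene was lower in P53ERTAM under vehicle (log2 fold change -1.56, SE 0.34, adjusted p = 0.00314), a call that held without any 1 library. Its fall with combo in EV tumors (log2 fold change -0.87, SE 0.33, adjusted p = 0.0485) was not called in 9 of 12 refits without 1 library (adjusted p from 0.0569 to 0.168, all but those without replicate 1 of EV vehicle or replicate 1 or 2 of P53ERTAM vehicle), nor under the scalings by DESeq2 size factors or protein-coding genes (adjusted p = 0.0618 and 0.0837). Under combo the vectors differed by -0.78 (SE 0.33, adjusted p = 0.0726), not called by the main edgeR fit. The DESeq2 Wald test (adjusted p = 0.0406), limma voom (0.0202), scaling to protein-coding genes (0.0408), a fit of the 2 groups alone (0.00493) and the fit without P53ERTAM vehicle replicate 2 (0.0151) did call Idi1 lower there. Of the Idi1 transcript 30.5% is shared in 50-base stretches with other genes, the pseudogene Gm13502 first, which had at most 0.625 CPM, so its counts are uncertain where reads were split between copies.

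2 kinases and a decarboxylase turn mevalonate into isopentenyl diphosphate. Mvk, the first kinase, had 28.8, 32.7 and 32.7 CPM in EV vehicle and 22.7, 19.7 and 24.5 in EV combo. Its P53ERTAM values were 21.96, 21.8 and 18.3 with vehicle and 16.8, 16.8 and 16.5 with combo. The EV vehicle values lay above all others and the P53ERTAM combo values below all others. Mvk was lower in P53ERTAM under vehicle (log2 fold change -0.60, SE 0.13, adjusted p = 0.00325) and fell with combo in EV tumors (log2 fold change -0.49, SE 0.13, adjusted p = 0.00929), and both calls held without any 1 library. The difference between the vectors under combo (log2 fold change -0.42, SE 0.13, adjusted p = 0.0206) was not called without replicate 1 or 3 of EV combo or replicate 1, 2 or 3 of P53ERTAM combo (adjusted p from 0.0549 to 0.0851). Pmvk, the second kinase, was lower in P53ERTAM under vehicle (log2 fold change -0.89, SE 0.14, adjusted p = 0.000387) and under combo (log2 fold change -0.75, SE 0.14, adjusted p = 0.000736), with means of 29.6 ± 2.43 and 22.8 ± 1.27 CPM (SD, n = 3) in EV tumors under vehicle and combo against 16.04 ± 1.05 and 13.5 ± 1.61. Its fall with combo in EV tumors (log2 fold change -0.38, SE 0.13, adjusted p = 0.0382) was not called in 10 of 12 refits without 1 library (adjusted p from 0.0518 to 0.182, all but those without replicate 2 or 3 of P53ERTAM vehicle), and of the other 8 settings only limma voom kept it. Mvd, the decarboxylase, was called by edgeR in no comparison: its means were 11.3 ± 0.670, 8.51 ± 0.633, 8.91 ± 0.763 and 7.48 ± 1.05 CPM from EV vehicle to P53ERTAM combo. Fdps, which builds farnesyl diphosphate, the branch point to isoprenoids, had 1 edgeR call, for the vectors under combo. It had 6.81, 8.86 and 9.38 CPM in EV vehicle and 8.95, 7.80 and 11.4 in EV combo. The P53ERTAM libraries had 7.39, 2.94 and 4.02 with vehicle and 3.67, 4.63 and 4.04 with combo. Its EV and P53ERTAM libraries did not overlap under combo (log2 fold change -1.19, SE 0.31, adjusted p = 0.00711), and under vehicle the groups overlapped (log2 fold change -0.79, SE 0.31, adjusted p = 0.0562). Without EV vehicle replicate 1 or P53ERTAM vehicle replicate 1 the difference under vehicle was called (adjusted p = 0.0493 and 0.0072), as it was by the DESeq2 Wald test (0.0391). Of the summed exon length of Fdps 26.7% is also annotated as Gm43738 on the same strand.

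From squalene to cholesterol, 10 of 11 enzymes were lower in P53ERTAM than in EV under vehicle, all but Lss, beside 19.8% of all genes. Nsdhl (ENSMUSG00000031349.4, chromosome X, 72918557 to 72958514), a dehydrogenase of the complex that strips methyl groups from the sterol ring, had the largest fold between the vectors under vehicle of all 32 members: 29.4, 39.8 and 40.5 CPM in EV vehicle and 23.7, 19.6 and 22.5 in EV combo. With P53ERTAM the values were 10.2, 8.22 and 12.2 under vehicle and 13.1, 11.8 and 11.7 under combo. The 3 levels EV vehicle, EV combo and P53ERTAM did not overlap. The difference between the vectors was 3.58-fold under vehicle (log2 fold change -1.84, SE 0.18, adjusted p = 2.66e-05) and 1.80-fold under combo (log2 fold change -0.85, SE 0.17, adjusted p = 0.00163). Nsdhl fell with combo in EV tumors (log2 fold change -0.74, SE 0.17, adjusted p = 0.00439) and gave 0.26 (SE 0.17, adjusted p = 0.395) in P53ERTAM tumors, and the 2 responses differed by 0.99 (SE 0.24, adjusted p = 0.00744). Its 4 calls held without any 1 library.

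Ebp (ENSMUSG00000031168.14, chromosome X, 8185329 to 8193512), the sterol isomerase that moves the ring's double bond, ran alongside: 59.2, 66.3 and 53.1 CPM in EV vehicle and 41.9, 38.8 and 33.7 in EV combo. In P53ERTAM tumors Ebp had 25.3, 10.9 and 23.4 with vehicle and 24.9, 22.04 and 25.9 with combo. P53ERTAM vehicle replicate 2 was lowest again. Under vehicle Ebp was 2.98-fold lower in P53ERTAM (log2 fold change -1.58, SE 0.24, adjusted p = 0.000339), a call that held in all 12 refits without 1 library. Its difference under combo (log2 fold change -0.65, SE 0.23, adjusted p = 0.0357) was not called without replicate 1 or 2 of EV combo or replicate 1, 2 or 3 of P53ERTAM combo (adjusted p from 0.0687 to 0.108). Its fall with combo in EV tumors (log2 fold change -0.64, SE 0.23, adjusted p = 0.039) was not called in 9 of 12 refits without 1 library (adjusted p from 0.052 to 0.124, all but those without replicate 1, 2 or 3 of P53ERTAM vehicle), and the difference of the responses (log2 difference 0.93, SE 0.33, adjusted p = 0.0409) not in 8 of 12 refits without 1 library (adjusted p from 0.0541 to 0.0936, all but those without replicate 3 of EV vehicle or replicate 1, 2 or 3 of P53ERTAM vehicle). Both lost their call under either other scaling, the first with adjusted p = 0.0548 and 0.0799, the second with 0.0517 and 0.0796. Both were also lost with no filter on low counts (adjusted p = 0.06745 and 0.06265). Offsets for GC content and length, an alternative chosen after seeing the data, ended both as well (0.123 and 0.1455).

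Dhcr7, the reductase of the last step, had the highest level per length of the sterol arm (154 ± 37.6 TPM, counts scaled to exon length and library size, in EV vehicle, SD, n = 3). It had 237, 254 and 367 CPM in EV vehicle and 161, 154 and 167 in EV combo. Its P53ERTAM values were 175, 99.03 and 146 with vehicle and 133, 132 and 119 with combo. All EV vehicle libraries were above all others. It was lower in P53ERTAM under vehicle (log2 fold change -1.03, SE 0.19, adjusted p = 0.00135) and fell with combo in EV tumors (log2 fold change -0.83, SE 0.19, adjusted p = 0.0045), and both calls held without any 1 library. Msmo1, the oxidase that starts the removal of methyl groups, had 27.8, 47.8 and 50.6 CPM in EV vehicle and 25.8, 25.9 and 22.4 in EV combo. The P53ERTAM libraries had 28.5, 16.1 and 22.7 with vehicle and 22.2, 25.4 and 22.9 with combo. EV vehicle replicate 1 was close to the other groups and overlapped P53ERTAM vehicle. Msmo1 fell with combo in EV tumors (log2 fold change -0.77, SE 0.22, adjusted p = 0.0152), though not without replicate 2 or 3 of EV vehicle or replicate 3 of EV combo (adjusted p from 0.0557 to 0.0716), and was lower in P53ERTAM under vehicle (log2 fold change -0.90, SE 0.22, adjusted p = 0.00704). Hsd17b7, the ketoreductase of the same complex, departed from the pattern in P53ERTAM tumors, with 46.8, 47.5 and 52.1 CPM in EV vehicle and 33.4, 30.8 and 26.5 in EV combo. With P53ERTAM the values were 41.5, 28.8 and 39.3 under vehicle and 37.4, 38.8 and 37.1 under combo. EV combo was the lowest group apart from P53ERTAM vehicle replicate 2. Hsd17b7 fell with combo in EV tumors (log2 fold change -0.69, SE 0.14, adjusted p = 0.00218) and gave 0.05 (SE 0.14, adjusted p = 0.873) in P53ERTAM tumors, a difference of responses of 0.74 (SE 0.20, adjusted p = 0.0118), and both calls held without any 1 library. Its difference between the vectors under vehicle (log2 fold change -0.42, SE 0.14, adjusted p = 0.0316) was not called without replicate 2 or 3 of EV vehicle, replicate 2 of P53ERTAM vehicle or replicate 1, 2 or 3 of P53ERTAM combo (adjusted p from 0.0558 to 0.11). Under combo Hsd17b7 lay higher in P53ERTAM, without overlap but not called (log2 fold change 0.32, SE 0.14, adjusted p = 0.0776). Limma voom (adjusted p = 0.029), the 2 groups alone (0.0485) and the fit without P53ERTAM vehicle replicate 2 (0.0241) called it higher there. So did the offsets for GC content and length (adjusted p = 0.03165).

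Fdft1, Sqle and Cyp51, at the entry to the sterol ring, were lower in P53ERTAM tumors under both treatments, with no edgeR call for combo in either vector. Fdft1, the squalene synthase, had 44.99, 66.99 and 55.9 CPM in EV vehicle and 46.96, 41.3 and 43.4 in EV combo. In P53ERTAM tumors it had 29.7, 27.9 and 32.5 with vehicle and 31.5, 29.4 and 25.1 with combo, below every EV library, with log2 fold changes between the vectors of -0.90 (SE 0.15, adjusted p = 0.000572) under vehicle and -0.61 (SE 0.15, adjusted p = 0.00455) under combo. Fdft1 shares 18.3% of its exon length with Ctsb on the other strand, a gene with 551 to 1751 CPM whose levels were highest in P53ERTAM combo; the strand setting of the counting is not given in the sources used here, and reads of the 2 cannot be told apart if strand was ignored. Sqle, the epoxidase that adds the first oxygen, had 138, 192 and 176 CPM in EV vehicle and 157, 116 and 137 in EV combo. In P53ERTAM tumors Sqle had 112, 73.5 and 114 with vehicle and 107, 94.4 and 99.5 with combo. It was lower in P53ERTAM under vehicle (log2 fold change -0.75, SE 0.17, adjusted p = 0.00434), and under combo near the threshold (log2 fold change -0.44, SE 0.17, adjusted p = 0.0491), a call lost in 8 of 12 refits without 1 library (adjusted p from 0.0518 to 0.183, all but those without replicate 1 or 2 of EV vehicle, replicate 2 of EV combo or replicate 2 of P53ERTAM vehicle). Cyp51, the lanosterol demethylase, was lower under vehicle (log2 fold change -0.83, SE 0.19, adjusted p = 0.00423) and under combo (log2 fold change -0.88, SE 0.19, adjusted p = 0.00249), from 135 ± 29.3 and 99.6 ± 15.6 CPM in EV to 75.97 ± 18.6 and 54.3 ± 4.51 in P53ERTAM. With combo in P53ERTAM tumors its groups did not overlap, but the change was not called (log2 fold change -0.49, SE 0.19, adjusted p = 0.132) except by limma voom (adjusted p = 0.0165). Without EV vehicle replicate 1, Fdft1 (adjusted p = 0.0187) and Cyp51 (0.0201) were called lower with combo in EV tumors.

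Tm7sf2, the reductase after Cyp51, was likewise lower in P53ERTAM under vehicle (log2 fold change -0.76, SE 0.23, adjusted p = 0.0191) and under combo (log2 fold change -1.22, SE 0.23, adjusted p = 0.00103). The call under vehicle was lost without replicate 2 or 3 of EV vehicle or replicate 1 of P53ERTAM vehicle (adjusted p from 0.0622 to 0.0881), and 15.3% of its exon length is also exon of Vps51 on the same strand. Combo left it at 10.5 ± 1.21 CPM in EV tumors beside 10.6 ± 2.72 with vehicle. Sc5d, the desaturase before the last step, had 48.6, 73.7 and 92.3 CPM in EV vehicle and 50.2, 41.4 and 47.4 in P53ERTAM vehicle, where EV vehicle replicate 1 overlapped the other group. It was lower in P53ERTAM under vehicle (log2 fold change -0.62, SE 0.18, adjusted p = 0.0171), but not without replicate 2 or 3 of EV vehicle or replicate 2 of P53ERTAM vehicle (adjusted p from 0.0521 to 0.103). With combo in EV tumors Sc5d gave -0.44 (SE 0.18, adjusted p = 0.0732), which was called without EV vehicle replicate 1 (adjusted p = 0.00432) and with offsets for GC content and length (0.0377), an alternative chosen after seeing the data. Lss, the cyclase that forms lanosterol, was called in no comparison by the main edgeR fit: its means ran from 60.5 ± 4.01 CPM in P53ERTAM combo to 78.5 ± 13.4 in EV vehicle, and P53ERTAM against EV under combo came to -0.33 (SE 0.13, adjusted p = 0.0595). That difference was called lower in 6 of the refits: by the DESeq2 Wald test (adjusted p = 0.0461), by limma voom (0.0242), with DESeq2 size factors (0.041), with scaling to protein-coding genes (0.016), from the 2 groups alone (0.00781) and without EV vehicle replicate 1 (0.0303).

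**Figure D3:**
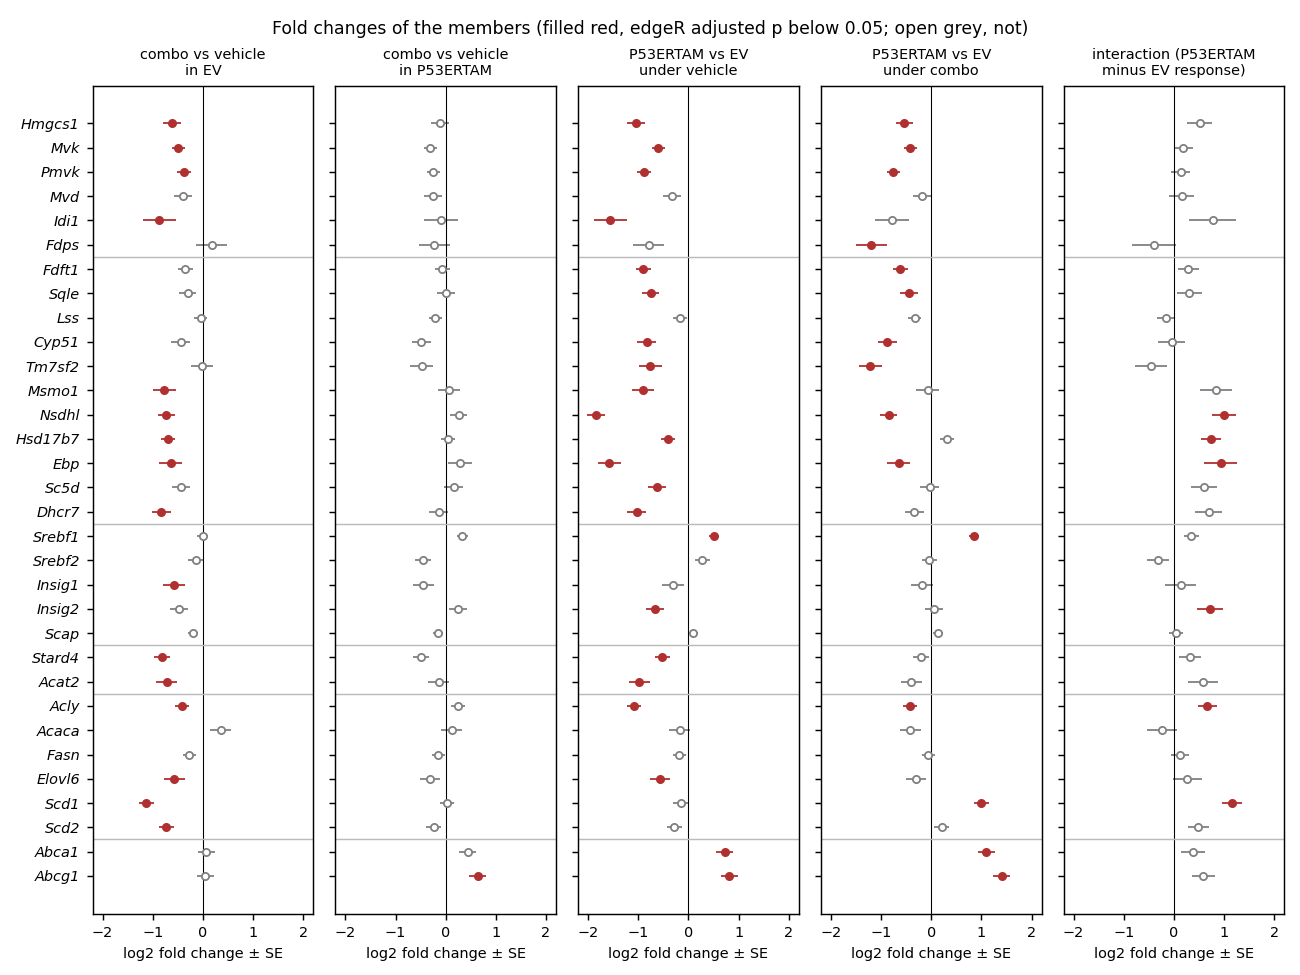
Log2 fold change with its standard error (x axis) of each member (y axis, ordered by role) in the 5 comparisons; filled red points have an edgeR adjusted p below 0.05 and open grey points do not. Sterol-arm points lie left of 0 for combo in EV tumors, except Fdps, and for P53ERTAM against EV, except Hsd17b7 under combo. The panel for combo in P53ERTAM tumors has 1 filled point, Abcg1.

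Of the 5 regulators, Srebf1 was called higher in P53ERTAM tumors, Insig1 and Insig2 had calls that single libraries ended, and Srebf2 and Scap had no call in the main edgeR fit. In P53ERTAM under vehicle 1 of 5 was higher and 1 lower, beside 17.9 and 19.8% of all genes. Under combo 1 was higher, beside 22.1%, and with combo in EV tumors 1 was lower, beside 21.1%. These shares were near those of all genes. Srebf1, which encodes SREBP-1, was higher in P53ERTAM tumors: 161, 186 and 174 CPM in EV vehicle and 179, 148 and 191 in EV combo. Its P53ERTAM values were 242, 243 and 257 with vehicle and 314, 333 and 289 with combo. Every P53ERTAM library exceeded every EV library, and the P53ERTAM combo libraries exceeded those of P53ERTAM vehicle. The difference between the vectors was called under vehicle (log2 fold change 0.51, SE 0.11, adjusted p = 0.00271) and combo (log2 fold change 0.85, SE 0.11, adjusted p = 5.97e-05), in all 12 refits without 1 library as well. Within P53ERTAM tumors the step with combo was not called (log2 fold change 0.33, SE 0.11, adjusted p = 0.0775), except by DESeq2 (adjusted p = 0.0462), by limma voom (0.0186) and with offsets for GC content and length (0.0493). The counts do not separate SREBP-1a from SREBP-1c.

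Srebf2, which encodes SREBP-2, had 329, 413 and 385 CPM in EV vehicle and 389.7, 265 and 368 in EV combo. The P53ERTAM libraries had 519, 450.5 and 395 with vehicle and 340.2, 363 and 294 with combo. Its P53ERTAM vehicle and combo libraries did not overlap, but the difference was not called (log2 fold change -0.45, SE 0.15, adjusted p = 0.0896) other than by limma voom (adjusted p = 0.016) and in a fit of those 2 groups alone (0.0439). Scap, the escort of both precursors, had the narrowest fold range of the members, between 106 and 146 CPM over the 12 libraries, and was called only with offsets for GC content and length, as lower with combo in EV tumors (adjusted p = 0.00902). Insig1, itself a classic SREBP target, had 33.3, 63.4 and 60.9 CPM in EV vehicle and 37.3, 29.4 and 38.97 in EV combo. With P53ERTAM the values were 51.9, 34.5 and 40.7 under vehicle and 31.5, 31.9 and 30.2 under combo. EV vehicle replicate 1 overlapped EV combo. Its fall with combo in EV tumors was at the threshold (log2 fold change -0.58, SE 0.22, adjusted p = 0.0485), was lost in 10 of 12 refits without 1 library (adjusted p from 0.057 to 0.207, all but those without replicate 1 of EV vehicle or replicate 2 of P53ERTAM vehicle), and was not called under any of the other 8 settings. Insig2 was lower in P53ERTAM under vehicle (log2 fold change -0.67, SE 0.18, adjusted p = 0.0111), with 37.8, 32.4 and 53.6 against 55.3, 63.7 and 78.2 CPM, though not without replicate 3 of EV vehicle or replicate 1 or 2 of P53ERTAM vehicle (adjusted p from 0.0517 to 0.0549). Its responses to combo differed between the vectors (log2 difference 0.72, SE 0.26, adjusted p = 0.0424), a call lost in 9 of 12 refits without 1 library (adjusted p from 0.0658 to 0.109, all but those without replicate 1 of EV vehicle, replicate 1 of EV combo or replicate 3 of P53ERTAM vehicle) and under both other scalings (adjusted p = 0.0608 and 0.0992). The DESeq2 Wald test (adjusted p = 0.0543) and the offsets for GC content and length (0.072) did not call this difference either.

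Stard4, which moves cholesterol between membranes, and Acat2, the cytosolic thiolase that supplies acetoacetyl-CoA, were lower with combo in EV tumors and in P53ERTAM under vehicle. The shares of all genes called lower there were 21.1 and 19.8%. Between the vectors under combo, where 10 of 17 sterol-arm genes were called lower, the main edgeR fit called neither. Stard4 gave -0.21 there (SE 0.16, adjusted p = 0.302) and Acat2 -0.40 (SE 0.21, adjusted p = 0.147). Acat2 was called lower there from the 2 groups alone (adjusted p = 0.02255), with offsets for GC content and length (0.0412) and without P53ERTAM vehicle replicate 2 (0.0413). Stard4 had 108, 142 and 148 CPM in EV vehicle and 79.3, 66.03 and 81.02 in EV combo. In P53ERTAM tumors Stard4 had 110.1, 73.6 and 92.9 with vehicle and 62.8, 72.1 and 61.4 with combo. It fell with combo in EV tumors (log2 fold change -0.81, SE 0.16, adjusted p = 0.00166), a call that held without any 1 library. In P53ERTAM tumors the groups did not overlap, but the change was not called (log2 fold change -0.50, SE 0.16, adjusted p = 0.0733); DESeq2 (adjusted p = 0.0422), limma voom (0.00447), the fit with no filter (0.0419) and scaling to protein-coding genes (0.0476) did call it. Under vehicle Stard4 was lower in P53ERTAM (log2 fold change -0.52, SE 0.16, adjusted p = 0.0188), with overlap at EV vehicle replicate 1 and P53ERTAM vehicle replicate 1, and not without replicate 2 or 3 of EV vehicle or replicate 2 of P53ERTAM vehicle (adjusted p from 0.0728 to 0.0816). Acat2 was lower in P53ERTAM under vehicle (log2 fold change -0.98, SE 0.21, adjusted p = 0.00338; 40.9 ± 5.91 against 20.7 ± 6.85 CPM) and fell with combo in EV tumors to 24.7 ± 2.56 CPM (log2 fold change -0.73, SE 0.21, adjusted p = 0.0158), the latter not without replicate 2 of EV combo (adjusted p = 0.0569) or replicate 2 of EV vehicle (adjusted p = 0.0711). Of the Acat2 transcript 45.9% is shared with Acat3, which had at most 0.734 CPM, and Tcp1, so its counts are uncertain.

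In the fatty-acid arm, 4 of 6 genes were called lower with combo in EV tumors (median -0.50), beside 21.1% of all genes (median -0.07). The count was 2 without replicate 2 of EV vehicle or replicate 1 or 2 of EV combo, and 2 when scaled to protein-coding genes, beside 14.8% of all genes called lower on that scale. In P53ERTAM tumors 0 of 6 changed by edgeR (median -0.06), with 0 at an unadjusted p below 0.05, 0 by DESeq2 and 1, Elovl6, by limma voom. Between the vectors 2 of 6 were lower in P53ERTAM under vehicle (median -0.23), Acly and Elovl6, beside 19.8% of all genes. Under combo 1 was higher, Scd1, and 1 lower, Acly (median -0.18), beside 22.1% of all genes called higher and 22.0% lower.

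Acly, the citrate lyase that supplies acetyl-CoA to both arms, had 373, 407 and 397 CPM in EV vehicle and 300.4, 282 and 297 in EV combo. Its P53ERTAM values were 198, 138 and 218 with vehicle and 229, 209 and 218 with combo. EV vehicle, EV combo and the P53ERTAM libraries formed 3 levels that did not overlap, as for Nsdhl. Acly was lower in P53ERTAM under vehicle (log2 fold change -1.09, SE 0.14, adjusted p = 0.000115), held without any 1 library, and under combo (log2 fold change -0.42, SE 0.13, adjusted p = 0.0216), not held without replicate 1 or 3 of EV combo or replicate 2 or 3 of P53ERTAM combo (adjusted p from 0.0536 to 0.075). It fell with combo in EV tumors (log2 fold change -0.42, SE 0.13, adjusted p = 0.0238), but not without replicate 2 or 3 of EV vehicle or replicate 1, 2 or 3 of EV combo (adjusted p from 0.0527 to 0.0852) or when scaled to protein-coding genes (adjusted p = 0.0767). Its responses differed between the vectors (log2 difference 0.66, SE 0.19, adjusted p = 0.016), in all 12 refits without 1 library too. Acaca, the acetyl-CoA carboxylase that commits carbon to fatty acids, was called in no comparison by the main edgeR fit, with 188, 155 and 91.4 CPM in EV vehicle and 156, 229 and 170.4 in EV combo. The P53ERTAM libraries had 141, 120.4 and 123 with vehicle and 132, 143 and 141 with combo. Its EV vehicle libraries spread widest. Without EV vehicle replicate 1, Acaca was called higher with combo in EV tumors (adjusted p = 0.0375), against the direction of the other 5 genes of the arm. Under combo it was called lower in P53ERTAM than in EV by limma voom (adjusted p = 0.033), from the 2 groups alone (0.0177) and without EV vehicle replicate 3 (0.0221). Of its transcript 52.6% is shared with the pseudogene Gm5182 (4.64 to 9.87 CPM), so its level is uncertain. Fasn, the synthase that makes palmitate, had no call in the main edgeR fit either: 719, 749 and 554 CPM in EV vehicle and 558, 593 and 518 in EV combo. With P53ERTAM the values were 669, 523 and 589 under vehicle and 485, 573 and 544 under combo, all overlapping between the vectors. Fasn was called lower with combo in EV tumors by limma voom (adjusted p = 0.0406), with offsets for GC content and length (0.0158) and without EV vehicle replicate 3 (0.0356).

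Scd1 (ENSMUSG00000037071.2, chromosome 19, 44394451 to 44407709), the desaturase that makes oleate from stearate, was the member that fell furthest with combo in EV tumors: 1345, 1205 and 1202 CPM in EV vehicle and 675, 620.3 and 421 in EV combo (log2 fold change -1.13, SE 0.15, adjusted p = 0.0002). In P53ERTAM tumors it stayed between 1064 and 1227 CPM in all 6 libraries, with a response of 0.03 (SE 0.14, adjusted p = 0.938). The 2 responses differed by 1.15 (SE 0.21, adjusted p = 0.00138), and under combo Scd1 was higher in P53ERTAM (log2 fold change 0.998, SE 0.15, adjusted p = 0.000172), and these 3 calls held without any 1 library. Scd2, its paralog, fell with combo in EV tumors (log2 fold change -0.73, SE 0.14, adjusted p = 0.0019), from 1126, 1402 and 1484 to 896, 854 and 669 CPM, and its responses differed by 0.49 (SE 0.20, adjusted p = 0.0778), not called by edgeR except with no filter on low counts (adjusted p = 0.0443) or without replicate 1 of either vehicle group (0.0405 and 0.0481). The paralogs share 4.66 and 4.01% of their transcripts in 50-base stretches with each other and with Scd3 and Scd4. Elovl6, which lengthens palmitate to stearate, had calls near the threshold for combo in EV tumors (log2 fold change -0.57, SE 0.21, adjusted p = 0.0408) and for the vectors under vehicle (log2 fold change -0.57, SE 0.21, adjusted p = 0.0449). The first was lost in 9 of 12 refits without 1 library (adjusted p from 0.0519 to 0.158, all but those without replicate 3 of EV combo or replicate 1 or 2 of P53ERTAM vehicle), the second in 9 of 12 refits without 1 library (adjusted p from 0.0526 to 0.168, all but those without replicate 2 or 3 of EV combo or replicate 1 of P53ERTAM vehicle).

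**Figure D4:**
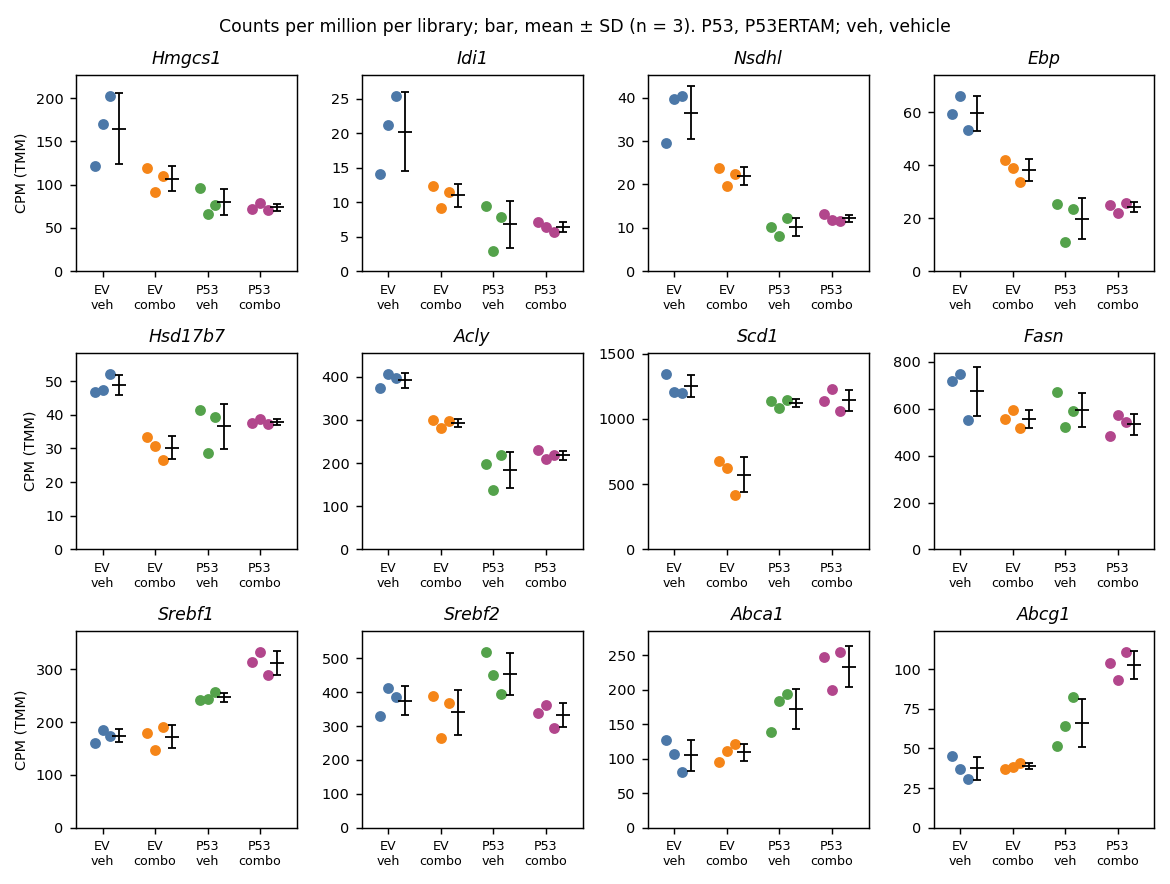
CPM (y axis, from 0) in each library (points) of the 4 groups (x axis) with the mean and SD of the 3 libraries beside them, for 12 members. Nsdhl, Acly and Ebp step down from EV vehicle to EV combo to P53ERTAM, Scd1 is low only in EV combo, and Srebf1, Abca1 and Abcg1 are higher in P53ERTAM.

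Both efflux transporters had higher levels with P53ERTAM than with EV, under each treatment, beside 17.9% of all genes called higher under vehicle and 22.1% under combo. Abca1, which loads cholesterol onto apolipoprotein A-I, had 126, 106 and 81.04 CPM in EV vehicle and 95.6, 111 and 121 in EV combo. In P53ERTAM tumors Abca1 had 139, 183 and 194 with vehicle and 247, 199 and 255 with combo. Every P53ERTAM library exceeded every EV library. Abca1 was higher in P53ERTAM under vehicle (log2 fold change 0.72, SE 0.17, adjusted p = 0.00536) and combo (log2 fold change 1.10, SE 0.17, adjusted p = 0.000265), calls that held without any 1 library, and its difference with combo within P53ERTAM tumors was not called (log2 fold change 0.44, SE 0.17, adjusted p = 0.128; limma voom adjusted p = 0.00925). Abcg1, which passes cholesterol to lipoprotein particles, had 44.99, 36.9 and 30.6 CPM in EV vehicle and 36.9, 38.4 and 40.96 in EV combo. Its P53ERTAM values were 51.8, 63.9 and 82.2 with vehicle and 104, 93.1 and 111 with combo. It was higher in P53ERTAM under vehicle (log2 fold change 0.82, SE 0.17, adjusted p = 0.00237) and 2.65-fold under combo (log2 fold change 1.40, SE 0.17, adjusted p = 4.31e-05), in all 12 refits without 1 library. It was also the 1 member of 32 called for combo in P53ERTAM tumors (log2 fold change 0.64, SE 0.17, adjusted p = 0.0402), a call lost in 8 of 12 refits without 1 library (adjusted p from 0.052 to 0.16, all but those without replicate 1, 2 or 3 of EV vehicle or replicate 3 of P53ERTAM vehicle) and with the EV combo libraries out of the fit (adjusted p = 0.0703). Offsets for GC content and length ended this call too (adjusted p = 0.0555).

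Cell markers moved with these groups, and in bulk tumors fewer cells of a type and less RNA per cell cannot be told apart. The 10 epithelial markers summed to 3521 to 4395 CPM in EV vehicle libraries, 2112 to 2611 in EV combo libraries, 1881 to 2346 in P53ERTAM vehicle libraries and 2285 to 2812 in P53ERTAM combo libraries. Of them, 6 were lower with combo in EV tumors, beside 21.1% of all genes, and 7 lower in P53ERTAM under vehicle, beside 19.8%. Under combo 2 were higher and 1 lower in P53ERTAM, no more than the 22.1 and 22.0% of all genes. The 4 basal markers did not overlap between the vectors, with sums of 211 to 417 and 345 to 485 CPM in EV libraries under vehicle and combo against 80.5 to 129.8 and 34.2 to 45.5 CPM in those of P53ERTAM. Their mean level (log2) was 1.05 in EV vehicle, 1.42 in EV combo, -0.57 in P53ERTAM vehicle and -1.90 in P53ERTAM combo. The sterol arm, also without overlap between the vectors, was at 0.555, 0.12, -0.30 and -0.37 in that order. With combo in EV tumors its mean was lower and that of the basal markers higher. With combo in P53ERTAM tumors both means were lower, and the sterol-arm libraries overlapped. All 4 basal markers were called lower in P53ERTAM under vehicle (median -1.67), beside 19.8% of all genes, and under combo (median -3.42), beside 22.0%. With combo in P53ERTAM tumors 3 of 4 fell, beside 2.98% of all genes called lower. The 10 fibroblast markers went the other way, at 581 to 643 CPM in EV vehicle libraries, 1147 to 2098 in EV combo libraries, 1553 to 3879 in P53ERTAM vehicle libraries and 1485 to 2209 in P53ERTAM combo libraries. Of the 10, 7 were higher with combo in EV tumors, beside 18.8% of all genes. In P53ERTAM 7 were higher under vehicle, beside 17.9%, and 2 under combo, beside 22.1%. The 11 macrophage markers, of cells that express both efflux transporters, summed to 369.9 to 802, 437 to 619.6, 705 to 774 and 1439 to 2098 CPM in the same order of groups. Of the 11, 7 rose with combo in P53ERTAM tumors, beside 3.30% of all genes, 1 was higher in P53ERTAM under vehicle, beside 17.9%, and 7 under combo, beside 22.1%. The 8 endothelial markers summed to 50.9 to 101, 98.6 to 169.9, 141 to 222 and 172 to 271 CPM, with 6 higher in P53ERTAM under vehicle, 5 under combo and 3 higher with combo in EV tumors. The shares of all genes called higher were 17.9, 22.1 and 18.8%. The 6 T cell markers summed to 3.39 to 35.2, 2.41 to 6.07, 9.62 to 11.2 and 20.4 to 25.7 CPM, with 4 higher in P53ERTAM under combo, beside 22.1% of all genes. The 4 erythroid markers, of blood, summed to 2.11 to 5.18, 0.722 to 4.79, 6.54 to 12.6 and 0.242 to 0.433 CPM, and all 3 that were tested fell with combo in P53ERTAM tumors, beside 2.98% of all genes. The 6 markers of milk-secreting epithelium summed to 181 to 1114 CPM over the libraries, with Wap below 1 CPM in all of them. No marker of the epithelial, basal, fibroblast, macrophage, endothelial or T cell lists was below 1 CPM in all libraries. The part of these cell markers in the values of the members was not tested.

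The question whether the p53 construct changed the response to combo was addressed by the interaction, the P53ERTAM response minus the EV response. Of the 32 members 6 were called, all with a higher response in P53ERTAM than in EV tumors (Nsdhl, Hsd17b7, Ebp, Insig2, Acly and Scd1), beside 18.8% of all genes called higher and 36.0% called in either direction. By arm these were 3 of 17 sterol genes (median 0.31) and 2 of 6 fatty-acid genes (median 0.37), against a median of 0.13 over all genes. The share of members called, 6 of 32, was thus below that of all genes, and in the higher direction it was that of all genes. Of the 13911 protein-coding genes tested, 3207 were called higher (median 0.23), a larger share than that of the members. The sterol count was 6 without EV vehicle replicate 1 and 5 without P53ERTAM vehicle replicate 1. The levels of both arms overlapped between P53ERTAM vehicle and P53ERTAM combo, the sterol arm at -0.30 ± 0.26 against -0.37 ± 0.04 and the fatty-acid arm at -0.08 ± 0.20 against -0.12 ± 0.06 (log2, SD, n = 3).

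The 2 arms were set against each other as a description, with no test. The sterol-arm level minus the fatty-acid-arm level was 0.23 ± 0.29 with vehicle and 0.25 ± 0.13 with combo in EV tumors (log2, SD, n = 3). In P53ERTAM tumors it was -0.22 ± 0.05 with vehicle and -0.25 ± 0.07 with combo. The 6 P53ERTAM libraries lay between -0.33 and -0.18, and 5 of 6 EV libraries above 0. The exception was EV vehicle replicate 1 (-0.08), which still lay above all P53ERTAM libraries.

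Other genes of the pathway, 60 in 6 lists, 58 of them tested, moved in part with the members. With combo in EV tumors 26 were called lower and 5 higher (median -0.44), beside 21.1% of all genes lower and 18.8% higher (median -0.07). The lower ones included Acsl5, an acyl-CoA synthetase (log2 fold change -1.19, adjusted p = 0.000135), Npc2, the lysosomal sterol carrier (-0.86, 0.000135), and Nus1, a subunit of the dolichol synthase (-0.78, 0.000101). Among the higher ones were Acacb, the mitochondrial acetyl-CoA carboxylase (1.07, 0.00409), Lrp1, a lipoprotein receptor (0.82, 0.00428), and Pdss2, of ubiquinone side-chain synthesis (0.78, 0.00508). Under vehicle 26 were lower in P53ERTAM and 6 higher (median -0.40), beside 19.8% lower and 17.9% higher of all genes (median 0.01). Lower were the fatty-acid desaturase Fads2 (log2 fold change -1.31, 7.34e-05), Mid1ip1, an activator of acetyl-CoA carboxylase (-1.48, 5.25e-05), and Acsl5 (-1.13, 0.000116). Lrp1 (0.87, 0.00325), the ubiquitin ligase Rnf145 (0.38, 0.00436) and Pdss2 (0.65, 0.0138) were higher. The call for Pdss2 was lost without replicate 2 of P53ERTAM vehicle (adjusted p = 0.0609), and that for Lrp1 with combo in EV tumors with offsets for GC content and length (adjusted p = 0.0913). In the fatty-acid list outside the members, 11 of 20 were lower with combo in EV tumors (median -0.52) and 15 of 20 lower in P53ERTAM under vehicle (median -0.76), beside the same 21.1 and 19.8% of all genes.

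Under combo 20 of the other pathway genes were higher in P53ERTAM than in EV and 7 lower (median 0.17), beside 22.1% of all genes higher and 22.0% lower (median 0.06). Higher were Npc2 (log2 fold change 1.40, adjusted p = 1.48e-06), Mylip, an LXR target that degrades lipoprotein receptors (1.54, 9.45e-05), and Nus1 (0.86, 1.17e-05). Lower were Acsl3, another acyl-CoA synthetase (-1.34, 0.00211), Fads2 (-1.29, 3.35e-05) and Pdss2 (-0.93, 0.00133). Combo in P53ERTAM tumors changed 4 of 58 by edgeR, a share near the 6.28% of all genes called. Pltp, a phospholipid transfer protein and LXR target, rose (log2 fold change 0.59, SE 0.14, adjusted p = 0.0314), as did the ubiquitin ligase Rnf139 (log2 fold change 0.56, SE 0.13, adjusted p = 0.0319) and Lipa, the lysosomal lipase (log2 fold change 0.77, SE 0.19, adjusted p = 0.0326), and Pdss2 fell (log2 fold change -0.81, SE 0.18, adjusted p = 0.0257). All 4 lost their calls without replicate 1 or 2 of P53ERTAM vehicle or replicate 1 or 3 of P53ERTAM combo, and all but Pltp without P53ERTAM combo replicate 2 (adjusted p from 0.0503 to 0.152 over these refits). With the EV combo libraries out of the fit, Pltp, Rnf139 and Pdss2 lost theirs. The interaction called 28 higher and 3 lower (median 0.52), beside 18.8% of all genes higher and 17.2% lower (median 0.13), with the fatty-acid list at 11 higher and 1 lower of 20 and the SREBP processing and degradation machinery at 6 higher of 10.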

How the data were processed

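For each tumor the authors deposited 1 table of unnormalized gene counts with exon coordinates and summed exon length, in the layout of featureCounts per the file headers. Per the submitters' processing notes, the tools were FastQC, fastp, STAR and featureCounts and the genome was GRCm38.p5. The annotation release and strand setting are not given in the sources used here. Stranded total-RNA libraries with Ribo-Zero depletion were made per the labels' protocols. Symbols were matched for 52403 of 52636 identifiers.

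Groups came from the sample titles. Counts were filtered by filterByExpr and scaled by TMM, and 17970 genes were fitted in 1 edgeR 4.0.16 quasi-likelihood model of 4 group means (8 residual degrees of freedom, R 4.3.3), with Benjamini-Hochberg adjustment over all genes and a threshold of 0.05. Fold changes are log2 ratios of group means; CPM are counts scaled to TMM library sizes, and list levels use log2(CPM + 1). The model was tested on simulated data. No 2 libraries of the same group were duplicates (chi-square per degree of freedom 9.13 to 67.1). Libraries of different groups were not compared in this check. Promoter windows were RefSeq's.

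Alternatives were DESeq2 1.42.0 (size factors, Wald test), limma 3.58.1 voom with sample weights, scaling to protein-coding genes, no filter, the 2 groups alone, EV combo left out, a replicate block, each library left out, and, chosen after seeing the data, offsets for GC content and length. All 32 members are described, and of the other pathway genes up to 3 per direction and comparison with the smallest p among those called, less 1 that is not reported here. Members and lists were chosen with earlier results of these data known.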

Additional observations from a re-analysis of the deposited data

Results flagged for a closer look

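The response to combo differed between P53ERTAM and EV tumors by the test of the interaction (edgeR) for 6 of 32 members, beside 36.0% of all genes called and 18.8% called higher: Scd1 at 1.15 (SE 0.21, adjusted p = 0.00138), Nsdhl at 0.99 (SE 0.24, adjusted p = 0.00744), Ebp at 0.93 (SE 0.33, adjusted p = 0.0409), Hsd17b7 at 0.74 (SE 0.20, adjusted p = 0.0118), Insig2 at 0.72 (SE 0.26, adjusted p = 0.0424) and Acly at 0.66 (SE 0.19, adjusted p = 0.016), each as the P53ERTAM log2 response minus the EV response. Among the other pathway genes with the smallest p, Acsl5 at 1.57 (SE 0.20, adjusted p = 0.000331) and Npc2 at 1.09 (SE 0.14, adjusted p = 0.000385) had the higher response in P53ERTAM tumors. Pdss2 at -1.58 (SE 0.26, adjusted p = 0.000919), Acacb at -1.36 (SE 0.35, adjusted p = 0.00888) and Gramd1a, a sterol transfer protein, at -1.08 (SE 0.28, adjusted p = 0.00983), had the lower response there. Of these 11, Ebp and Insig2 lost their calls in 8 and 9 of 12 refits without 1 library, and the other 9 kept theirs in all 12 refits.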

How the results depend on the processing

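Of 3796 values recomputed under another setting, 3507 stayed on their side of the threshold, 97 of these uncalled in both fits and with the other sign. Another 219 lost a call and 70 gained one, with their direction kept; the cause of these changes was not tested. For combo in P53ERTAM tumors 1129 genes were called, 2206 by DESeq2, 3748 by limma voom, 1890 from those 2 groups alone and 627 without the EV combo libraries, and limma voom called 1 sterol-arm and 1 fatty-acid-arm gene. The fatty-acid-arm count was 2 for combo in EV tumors when scaled to protein-coding genes, and 1 for P53ERTAM against EV under vehicle with DESeq2 size factors, scaling to protein-coding genes, limma voom, no filter or the 2 groups alone. Without 1 library at a time, the genes called numbered 5669 to 7662, 77 to 2130, 4921 to 6707, 5912 to 8640 and 4901 to 6834 for combo in EV tumors, combo in P53ERTAM tumors, the vectors under vehicle, the vectors under combo and the interaction, those of the sterol arm 4 to 10, 0 to 0, 11 to 15, 6 to 12 and 2 to 6, and those of the fatty-acid arm 2 to 4, 0 to 0, 1 to 2, 1 to 3 and 2 to 3. The lowest of the 1129, 77, came without P53ERTAM combo replicate 1, and the highest, 2130, without P53ERTAM vehicle replicate 3. Under vehicle 1 fatty-acid-arm gene was left in 9 refits, all but those without EV combo replicate 2 or 3 or P53ERTAM vehicle replicate 1. Under combo the 2 calls became 1 without EV combo replicate 1 or 3 or P53ERTAM combo replicate 2 or 3. Scaled to protein-coding genes, calls split 4076 to 2663 higher and lower for combo in EV tumors, 532 to 750 in P53ERTAM tumors and 2138 to 3720 for the interaction, against 3386 to 3783, 593 to 536 and 3377 to 3096. Deviations of same-numbered libraries from their group means correlated between -0.149 and 0.211 over 18 pairs (median -0.026). Those of other-numbered libraries correlated between -0.262 and 0.152 over 36 pairs (median 0.016). No pairing by replicate number was seen in the counts, though this check cannot tell whether libraries shared a batch. With the replicate block, 6789, 970, 6341, 7639 and 6001 genes were called in the 5 comparisons, among them 7, 0, 14, 9 and 3 of the sterol arm and 4, 0, 2, 2 and 2 of the fatty-acid arm. It ended the calls of Pmvk, Insig1 and Idi1 for combo in EV tumors, Abcg1 and Lipa for combo in P53ERTAM tumors and Sqle for the vectors under combo (adjusted p from 0.05001 to 0.0744). Beside the losses given in the report, another scaling, filter, tool or set of groups ended the call of Elovl6 for combo in EV tumors. For the vectors under vehicle such a setting ended the calls of Elovl6, Hsd17b7, Sc5d, Stard4, Tm7sf2 and Pdss2. For the vectors under combo it ended those of Ebp and Mvk (adjusted p from 0.0503 to 0.201 over all these losses). Every member had at least 40 counts in every library, and each group had 3 libraries, which limits the precision of the spread.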

Other observations

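Per unit of exon length, as TPM from the counts and summed exon lengths, the desaturases stood highest of the 32 members in EV vehicle tumors, with 810.3 ± 47.6 for Scd1 and 769 ± 111 for Scd2 (SD, n = 3), which do not differ beyond their spread. Srebf2 (236 ± 29.3 TPM), Acly (233 ± 12.7) and Fasn (193 ± 31.3) came next and overlapped from one to the next, followed by the sterol enzymes Dhcr7 (154 ± 37.6) and Hmgcs1 (112 ± 27.96). The lowest members were Fdps (6.22 ± 1.04 TPM) and Tm7sf2 (9.57 ± 2.47 TPM). Srebf1 stood at 96.8 ± 7.99 TPM in EV vehicle and 187 ± 15.8 in P53ERTAM combo, and Srebf2 at 225 ± 26.5 in P53ERTAM combo.

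Genes around LXR were split, as named here after their values were seen. Of 6 LXR receptors and targets tested outside the members, Mylip was higher in P53ERTAM under vehicle (log2 fold change 0.69, SE 0.20, adjusted p = 0.0179) and Pltp (log2 fold change -0.59, SE 0.14, adjusted p = 0.00597) and Arl4c (log2 fold change -0.53, SE 0.13, adjusted p = 0.0078) were lower. Beside these, 17.9% of all genes were called higher and 19.8% lower under vehicle. Under combo Mylip and Nr1h2, which encodes LXRβ, were higher, with log2 fold changes of 1.54 and 0.57 (edgeR adjusted p = 9.45e-05 and 0.00729). They were 2 of the 6, beside 22.1% of all genes called higher. Of the 3 oxysterol enzymes tested, Ch25h (log2 fold change 0.99, SE 0.27, adjusted p = 0.00964) and Cyp27a1 (log2 fold change 1.30, SE 0.40, adjusted p = 0.0194) were higher in P53ERTAM under combo, beside the same 22.1% of all genes. The macrophage markers whose sums are given with the efflux transporters were highest in the same group, and their part in these values was not tested.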
